A study of Mus musculus with 4 samples.

Results

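The transcripts described here are those of 10 circadian clock genes, *Bhlhe40*, *Bhlhe41*, *Per1*, *Per2*, *Per3*, *Cry1*, *Arntl*, *Clock*, *Nr1d1* and *Dbp*, out of 47729 genes in the count table. The set was chosen by a measured difference, because *Bhlhe40* and *Per1* were both low in the Treg cells labelled TfR1-deficient, and the question was whether the rest of the clock moved with them. For that reason the genotype difference of the 10 genes is given as a description, with no test. All 10 were found by identifier and all 10 passed the filter on low counts.

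Regulatory T (Treg) cells were sorted from C57BL/6 mice, and the labels give the spleen as the tissue. The study's legend for these RNA-seq data instead names both spleens and lymph nodes. WT mice were *Tfrc* +/+ *Foxp3* YFP-Cre/+ and TfR1-deficient mice were *Tfrc* fl/fl *Foxp3* YFP-Cre/+, with 2 libraries of each. Both genotypes carried Cre, which is expressed from the *Foxp3* locus and so acts in cells that express, or once expressed, *Foxp3*. The methods give such mice as heterozygous females and as age-matched young adults. *Foxp3* is X-linked, so in them Cre is active in a part of the Treg cells, which the sort for YFP selects. The number of animals behind a library and the hour of collection were not given in the sources used here, although mice were kept in a light and dark cycle, so the hour and the genotype cannot be told apart.

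The libraries held 10841939 to 17278448 counts. *Tfrc*, which encodes transferrin receptor 1 (TfR1), stood at 50.8 and 54.1 CPM (each library's counts as a share of its total after TMM scaling) in WT and at 56.1 and 48.3 CPM with the TfR1-deficient label, so the counts of the targeted gene did not separate the genotypes and every direction below rests on the labels. The counts cover the whole gene and do not show the floxed part separately. Effector Treg genes that the study names for these libraries did separate them, which is not independent of the study's choice of genes. For example, *Ctla4*, an inhibitory receptor gene, was at 407 and 427 CPM in WT and 241 and 235 CPM with the TfR1-deficient label. The study also reports lower CTLA-4 in TfR1-deficient Treg cells by flow cytometry. Whether the library labels are right was not tested here. *Foxp3*, the defining Treg transcription factor, stood at 194, 130, 122 and 114 CPM in WT 1, WT 2, TfR1-deficient 1 and TfR1-deficient 2, the order kept for all values below. The summed level of 18 red pulp macrophage and myeloid markers was 1200, 98, 72.4 and 3520 CPM, with *S100a8* at 0 in all 4 libraries, and 20 proliferation genes summed to 2460, 1100, 1160 and 2370 CPM. WT 1 and TfR1-deficient 2 were thus high in both lists and stood apart from the other 2 libraries along the first principal component (62.6% of the variance), while the second (23.1%) separated the genotypes. Differences are therefore also given between the 2 libraries high in these markers and between the 2 libraries low in them. In bulk RNA, fewer cells of one kind and less RNA per cell cannot be told apart. The study's legend calls the data 2 biological replicates, but nothing in the labels says that libraries came from separate animals. The p-values therefore measure the spread between these libraries only.

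The mammalian clock is a transcriptional loop. CLOCK and BMAL1, the product of *Arntl*, bind E-box DNA and activate the *Per* and *Cry* genes, whose proteins return to inhibit that pair, while NR1D1 (REV-ERBα) represses *Arntl* through ROR elements and DBP activates genes that carry a D-box. BHLHE40 (DEC1) and BHLHE41 (DEC2) are E-box repressors that act on the same sites, and *Bhlhe40* is also induced by T-cell receptor stimulation, as *Per1* is by CREB and by the glucocorticoid receptor.

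Because the clock genes are linked by these short DNA elements, the 250 bases before each annotated start (GRCm38.p6) were searched on both strands. Such a start can lie inside the RefSeq gene span, as those of *Per1*, *Arntl* and *Clock* do. Windows were found for 8 of the 10 genes, 12 windows in all. None was available for *Bhlhe40* and *Per2*, so these genes were not searched. The bases after the *Nr1d1* start matched no annotated transcript of that gene, unlike those of the other windows. A gene could have more than 1 window, so the gene counts below and the shares of windows are not in the same unit. The perfect E-box CACGTG was present in 3 genes (*Per1*, *Cry1* and *Bhlhe41*) and in 6.02% of 32851 promoter windows of the same length. The variant CACGTT was present in 2 (*Cry1* and *Nr1d1*) and in 3.85% of all windows. The D-box TTATGTAA was present in 1 gene, *Per3*, 2 times, against 0.819% of all windows, and each of these copies also matched the looser form TTANNTAA, which 5.43% of all windows held. The ROR half-site AGGTCA was found in *Per1* and *Clock* (14.0% of all windows), the short CREB half-site TGACG in *Per1* and *Cry1* (17.8%), and the full cAMP response element TGACGTCA, which contains that half-site, in 0 of the 8 (1.55%). The stretches below are shown because they carry the elements in the members that were lower (*Per1*, *Nr1d1*) and in members that were higher (*Cry1*, *Per3*) in TfR1-deficient libraries. They are chr11:69098699-69098948 on the + strand for *Per1* and chr11:98775378-98775627 on the - strand for *Nr1d1*. Those of *Cry1* and *Per3*, both on the - strand, are chr10:85185055-85185304 and chr4:151044708-151044915. The *Per3* stretch leaves out the bases that belong to the gene model. The *Per1* stretch was not cut and lies inside the RefSeq span of the gene, chr11:69095108-69109965. Capitals mark the E-boxes, their variant, the ROR half-site and the D-boxes on either strand.
Per1: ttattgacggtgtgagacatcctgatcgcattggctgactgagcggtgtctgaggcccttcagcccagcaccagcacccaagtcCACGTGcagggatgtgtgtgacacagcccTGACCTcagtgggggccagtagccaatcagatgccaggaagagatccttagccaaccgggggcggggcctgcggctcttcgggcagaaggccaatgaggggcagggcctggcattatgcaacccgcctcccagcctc
Nr1d1: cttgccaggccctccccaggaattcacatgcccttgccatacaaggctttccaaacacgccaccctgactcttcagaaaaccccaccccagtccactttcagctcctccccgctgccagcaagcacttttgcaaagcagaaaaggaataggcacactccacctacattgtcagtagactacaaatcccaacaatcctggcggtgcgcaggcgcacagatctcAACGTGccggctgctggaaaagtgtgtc
Cry1: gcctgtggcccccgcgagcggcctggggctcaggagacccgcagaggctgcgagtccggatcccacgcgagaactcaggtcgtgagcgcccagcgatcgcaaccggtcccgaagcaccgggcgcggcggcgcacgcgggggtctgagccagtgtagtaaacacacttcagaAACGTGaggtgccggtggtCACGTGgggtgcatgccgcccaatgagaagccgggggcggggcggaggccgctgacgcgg
Per3: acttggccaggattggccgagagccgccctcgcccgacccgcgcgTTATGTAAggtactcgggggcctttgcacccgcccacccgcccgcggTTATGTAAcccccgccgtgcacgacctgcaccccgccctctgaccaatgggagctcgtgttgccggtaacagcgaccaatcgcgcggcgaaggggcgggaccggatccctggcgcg

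In *Per1* the E-box began 166 bases and the ROR half-site 137 bases before the start, and in *Cry1* the E-box began 60 bases and its variant 79 bases before the start. The *Nr1d1* variant lay 28 bases before the start. The *Per3* D-boxes lay 205 and 158 bases before the start used in the search, which lies beyond the end of the cut stretch shown. *Per1* and *Cry1*, which share the perfect E-box, differed in direction between the genotypes, as given below. A match is a sequence description and not a measured binding site.

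*Bhlhe40* and *Per1*, the E-box repressor and the period gene, were the most abundant of the 10 transcripts per length and were also the genes that defined the set. *Bhlhe40* was present at 157 and 188 CPM in WT and at 78 and 45.2 CPM in TfR1-deficient libraries, with means of 173 ± 22 and 61.6 ± 23.2 CPM (SD, n = 2). The groups did not overlap, and the TfR1-deficient libraries differed between themselves more than the WT libraries did in proportion. The log2 fold change of *Bhlhe40*, TfR1-deficient over WT, was -1.49 (SE 0.29), and 0.702% of 12536 tested genes had a lower value. *Per1* was present at 152 and 118 CPM in WT and at 63.9 and 53.7 CPM in TfR1-deficient libraries, with means of 135 ± 24.4 and 58.8 ± 7.25 CPM (SD, n = 2). Its groups did not overlap either, and its log2 fold change was -1.20 (SE 0.19), with 1.33% of genes lower. These positions are those that chose the pair and are read no further.

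Because the groups did not overlap for either gene, any pairing of a WT with a TfR1-deficient library gives a negative difference. Only the sizes are therefore given by level of macrophage and proliferation transcripts. Between the 2 libraries high in these markers, *Bhlhe40* differed by -1.80 and *Per1* by -1.51 on the log2 CPM scale, and between the 2 libraries low in them by -1.27 and -0.88. Leaving out TfR1-deficient 1 gave *Bhlhe40* a log2 fold change of -1.90 and leaving out TfR1-deficient 2 gave -1.15. Together the pair summed to 309, 306, 142 and 98.8 CPM, whereas the other 8 genes summed to 81.1, 61.1, 82.7 and 76.7 CPM. The pair made up 79.2% and 83.4% of the counts of the 10 genes in WT and 63.2% and 56.3% in TfR1-deficient libraries, so the lower total of the set (391 and 367 against 225 and 176 CPM) lay in *Bhlhe40* and *Per1*.

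**Figure D1:**
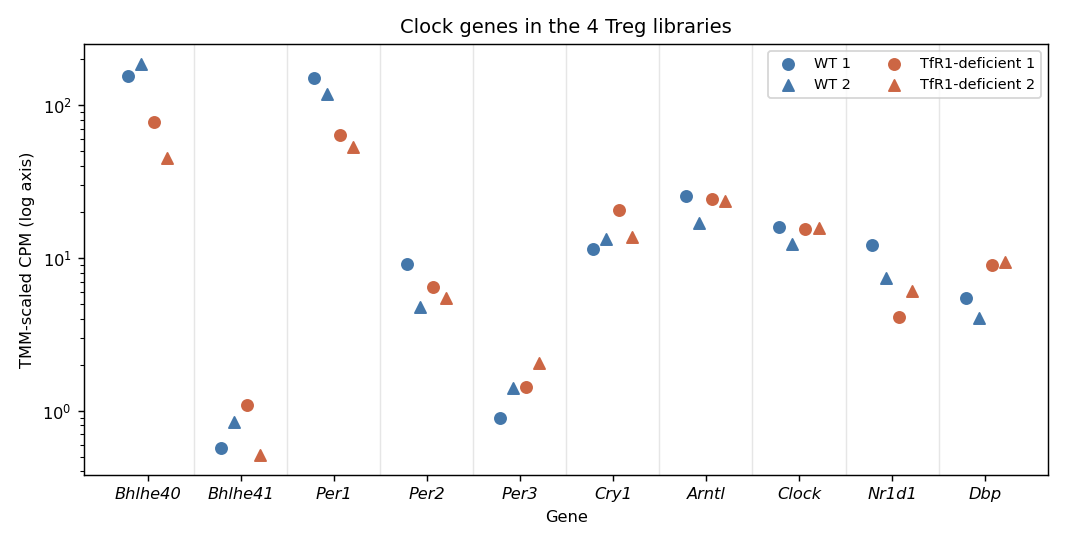
TMM-scaled CPM on a log axis for each of the 10 clock genes, with 1 point for each of 2 WT (blue) and 2 TfR1-deficient (orange) libraries. *Bhlhe40*, *Per1* and *Nr1d1* lie lower in both TfR1-deficient libraries, *Dbp*, *Per3* and *Cry1* lie higher in both, and the other 4 genes overlap.

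The other 8 genes did not move as one group. Of them, 2 had a negative and 6 a positive log2 fold change, with a median of 0.19, beside 6135 negative and 6401 positive and a median of 0.01 over all 12536 tested genes. Over all 10, both TfR1-deficient libraries lay below both WT libraries for 3 genes (*Bhlhe40*, *Per1* and *Nr1d1*), a position held by 18.9% of all tested genes. Both lay above for 3 (*Dbp*, *Per3* and *Cry1*), a position held by 16.0%. The median of the other 8 was 0.35 without WT 1 and 0.26 without TfR1-deficient 2.

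The positive limb, *Arntl* and *Clock*, overlapped between genotypes. *Arntl* was present at 25.5 and 16.9 CPM in WT and at 24.4 and 23.7 CPM in TfR1-deficient libraries, for a log2 fold change of 0.19 (SE 0.27). *Clock* was present at 15.9 and 12.4 CPM and at 15.4 and 15.7 CPM, for a log2 fold change of 0.14 (SE 0.26). For both genes WT 2 was the lowest library and WT 1 the highest, and both fold changes turned negative, to -0.08 and -0.04, when WT 2 was left out.

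Among the inhibitors of that pair, the period genes differed in direction. *Per2*, the close relative of *Per1*, was present at 9.09 and 4.78 CPM in WT and at 6.51 and 5.48 CPM in TfR1-deficient libraries, with both of the latter inside the WT range and a log2 fold change of -0.21 (SE 0.42), which became 0.34 without WT 1. *Per3* was scarce, at 11 and 15 counts in WT and 25 and 28 counts in TfR1-deficient libraries, or 0.90, 1.41, 1.44 and 2.04 CPM. Its groups did not overlap, but WT 2 and TfR1-deficient 1 were nearly equal, and its log2 fold change of 0.59 was close to its SE of 0.57 and was 0.32 without TfR1-deficient 2 and 0.94 without WT 2. *Cry1*, which encodes the cryptochrome repressor, was present at 11.5 and 13.4 CPM in WT and at 20.7 and 13.7 CPM in TfR1-deficient libraries. TfR1-deficient 1 alone stood clear of WT for *Cry1*, and its log2 fold change of 0.46 (SE 0.31) was 0.16 without that library and 0.73 without TfR1-deficient 2.

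*Nr1d1* and *Dbp*, both direct E-box outputs of CLOCK and BMAL1, lay on opposite sides. *Nr1d1* was present at 12.2 and 7.41 CPM in WT and at 4.09 and 6.06 CPM in TfR1-deficient libraries, with a log2 fold change of -0.95 (SE 0.41), which was -0.52 without WT 1. *Dbp* was present at 5.48 and 4.03 CPM in WT and at 8.99 and 9.49 CPM in TfR1-deficient libraries, with a log2 fold change of 0.95 (SE 0.33). Neither gene overlapped between genotypes. *Nr1d1* differed by -1.01 between the libraries high in macrophage and proliferation markers and by -0.86 between those low in them, and *Dbp* by 0.79 and 1.16. Within each library the log2 ratio of *Dbp* to *Nr1d1* CPM was -1.15 and -0.88 in WT and 1.14 and 0.65 in TfR1-deficient libraries, so *Nr1d1* gave more counts in both WT libraries and *Dbp* in both TfR1-deficient libraries.

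Both of these genes share exon bases with a gene on the other strand, and whether counting used strand was not given, so reads in the shared bases cannot be told apart. *Dbp* shares 491 exon bases with *Sphk2*, a sphingosine kinase gene that was more abundant (91.3, 80.1, 63.5 and 70.5 CPM) and lower in both TfR1-deficient libraries, opposite to *Dbp*. *Nr1d1* shares 263 exon bases with *Thra*, a thyroid hormone receptor gene, at 5.40, 6.94, 5.76 and 4.45 CPM and overlapping between genotypes. *Bhlhe40* shares 118 exon bases with 0610040F04Rik, which had 0 counts.

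*Bhlhe41*, the paralogue of *Bhlhe40*, was close to the limit of detection, at 7 and 9 counts in WT and 19 and 7 counts in TfR1-deficient libraries. TfR1-deficient 1 was the highest and TfR1-deficient 2 the lowest in CPM, and the log2 fold change of 0.20 (SE 0.75) became -0.43 without TfR1-deficient 1. At this depth a difference in *Bhlhe41* was not detectable.

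Ratios of genes within a library do not depend on the library's scaling. The hour of collection was not given, so no clock position is read from them. *Per1* was chosen for its low level, so its ratio to *Arntl* restates that choice. The log2 ratio of *Per1* to *Arntl* CPM was 2.58 and 2.80 in WT and 1.39 and 1.18 in TfR1-deficient libraries, and that of *Nr1d1* to *Arntl* was -1.06 and -1.19 against -2.58 and -1.97. Both ratios were lower in both TfR1-deficient libraries. The log2 ratio of *Dbp* to *Arntl* was higher, at -1.44 and -1.32 against -2.21 and -2.07 in WT. The log2 ratio of *Per2* to *Arntl* was -1.49 and -1.82 in WT and -1.91 and -2.12 in TfR1-deficient libraries, a smaller gap in the same direction as *Per1*. With 2 libraries of each genotype, an exact two-sided permutation test cannot give a p-value below 0.333, so the ratios carry no test.

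**Figure D2:**
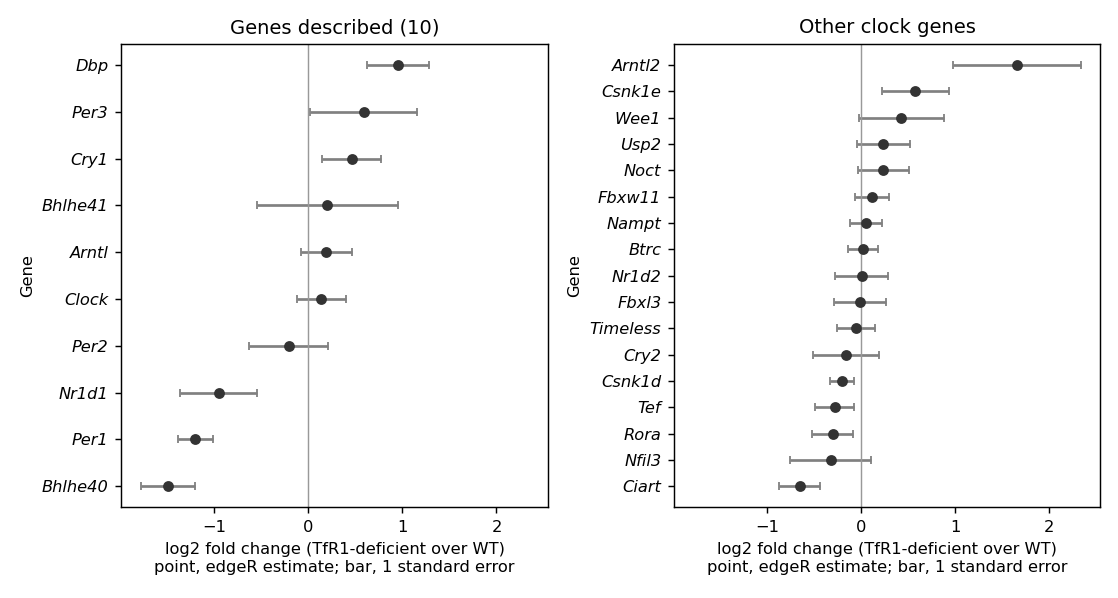
The edgeR log2 fold change, TfR1-deficient over WT, of the 10 clock genes (left) and of other clock genes that were tested (right), with bars of 1 SE on a log2 axis. Values range from -1.49 for *Bhlhe40* to 0.95 for *Dbp* on the left and from -0.65 for *Ciart* to 1.66 for *Arntl2* on the right, on both sides of 0.

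Levels between genes were compared as mean CPM per kilobase of exon. *Bhlhe40* was highest, at 48.0 and 57.6 in WT and 23.8 and 13.8 in TfR1-deficient libraries, followed by *Per1* at 27.1, 20.9, 11.3 and 9.53. *Bhlhe40* lay above *Per1*, *Per1* above *Arntl* and *Arntl* above *Cry1* in all 4 libraries, with means 2.08, 2.23 and 1.57 times those of the next gene. *Per1* therefore remained above *Arntl* (8.70, 5.77, 8.35 and 8.11 CPM per kilobase) in TfR1-deficient libraries, though by less. *Cry1* lay above *Nr1d1* in 3 libraries and *Nr1d1* above *Dbp* in 2, so the order of these 3 neighbours was not the same across libraries. *Dbp* lay above *Clock* in 3 libraries. *Clock* lay above *Per2* and *Per2* above *Per3* in all 4, the latter by 7.34 times, and *Per3* and *Bhlhe41* were at the bottom with no more than 0.213 CPM per kilobase.

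The wider clock was read from 22 further core, modifying and output genes, which the choice of the 10 did not use. Of these, 18 were tested, 9 with a negative and 9 with a positive log2 fold change and a median of 0.00. Both TfR1-deficient libraries lay below both WT libraries for 5 and above for 5 (27.8% each), beside 18.9% and 16.0% of all tested genes. In edgeR's quasi-likelihood test 0 of the 18 passed an adjusted p-value of 0.05, as did 0 (0%) of all 12536 genes in either direction, with a lowest adjusted p of 0.266 and 655 genes at an unadjusted p under 0.05. When genes were called by an unadjusted p under 0.05 with a log2 fold change of 0.5 or more in size, 2 of the 18 were lower and 0 higher, beside 2.48% of all tested genes lower and 1.60% higher. DESeq2 at the unadjusted threshold also called 1 of them higher.

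*Ciart* encodes CHRONO, a repressor of CLOCK and BMAL1. It was 1 of the 2 lower genes, present at 26.9 and 32 CPM in WT and at 17.6 and 19.9 CPM in TfR1-deficient libraries, for a log2 fold change of -0.65 (SE 0.22, unadjusted p = 0.028 and adjusted p = 0.911 in edgeR's quasi-likelihood test). The call of *Ciart* was lost without WT 2, without TfR1-deficient 1 and without TfR1-deficient 2.

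Among the rest, *Nfil3*, which encodes the D-box repressor that opposes DBP, had a log2 fold change of -0.32 (SE 0.43) and overlapped between genotypes. *Arntl2*, the paralogue of *Arntl*, was the highest, at 2.46 and 1.03 CPM in WT and 3.17 and 7.96 CPM in TfR1-deficient libraries, for a log2 fold change of 1.66 (SE 0.68, unadjusted p = 0.056 in edgeR's test). *Csnk1e*, which encodes a kinase of PER proteins, stood at 4.50, 7.03, 8.99 and 8.18 CPM, with a log2 fold change of 0.58 (SE 0.36), and *Wee1*, a cell-cycle kinase gene driven by the clock, had 0.43 (SE 0.45). *Npas2*, *Rorb*, *Fbxl21* and *Hlf* were too low to test.

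Genes outside the clock that respond to signals acting on *Per1* or *Bhlhe40* were described in the same way. Over all tested genes, 48.9% had a negative log2 fold change, and 2.48% were lower and 1.60% higher at the unadjusted threshold. Of 19 tested immediate-early and CREB-responsive genes, 15 had a negative log2 fold change and the median was -0.27. At the unadjusted threshold 0 were higher and 2 lower. These were *Nr4a3* (26.9, 27.7, 15.3 and 20 CPM, log2 fold change -0.63, SE 0.23), which encodes an orphan nuclear receptor induced by antigen, and *Sik1* (31.4, 35.8, 23.6 and 22.1 CPM, log2 fold change -0.56, SE 0.19), a kinase gene induced by CREB. *Egr3* had the lowest value, -1.11 (SE 0.65), at 10 to 30 counts per library, *Fosl2* had -0.77 (SE 0.61) and overlapped between genotypes, and *Ier5* and *Ier2* had the highest, 0.29 (SE 0.26) and 0.49 (SE 0.17). The median of this list was -0.53 without TfR1-deficient 2.

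Of 13 tested glucocorticoid-responsive genes, 7 had a negative and 6 a positive log2 fold change, with a median of -0.04. Of all tested genes, 48.9% were negative, and 1.60% were called higher at the unadjusted threshold. *Fkbp5*, an inhibitor of the glucocorticoid receptor that the receptor itself induces, was the 1 of the 13 called higher. It stood at 26.8 and 16.5 CPM in WT and 39.5 and 38.8 CPM in TfR1-deficient libraries (log2 fold change 0.85, SE 0.28, unadjusted p = 0.027 and adjusted p = 0.911 in edgeR's test). *Per1* was on the other side. *Sgk1* (-0.67, SE 0.58), *Klf9* (-0.52, SE 0.43) and *Mt1* (2.22, SE 1.43) were the other extremes on the log2 scale, and none passed the unadjusted threshold.

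Of 26 effector Treg genes, 23 had a negative log2 fold change, beside 48.9% of all tested genes, and the median was -0.83. At the unadjusted threshold 13 were lower and 0 higher, beside 2.48% and 1.60% of all tested genes. Several of the 26 were named by the study for these libraries, so their direction is not independent evidence. *Il10* (-2.88, SE 0.52) was among the lowest, and *Tnfrsf4* (0.14, SE 0.33) and *Entpd1* (0.29, SE 0.58) the highest.

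Of 5 cytokine genes that BHLHE40 is known to regulate in T cells, 3 were tested. Of these, 2 were lower at the unadjusted threshold, beside 2.48% of all tested genes. BHLHE40 is known as a repressor of *Il10*, and *Il10* was lower together with *Bhlhe40*, at 12.0 and 5.53 CPM in WT and 1.21 and 1.17 CPM in TfR1-deficient libraries. *Il10* is also in the effector Treg list and was named by the study for these libraries, so its direction is not independent evidence. *Ifng*, which encodes interferon-γ, stood at 16.3, 8.90, 2.13 and 5.91 CPM, with a log2 fold change of -1.65 (SE 0.60). *Il2* had -0.14 (SE 0.54), and *Csf2* and *Il17a* were too low to test.

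**Figure D3:**
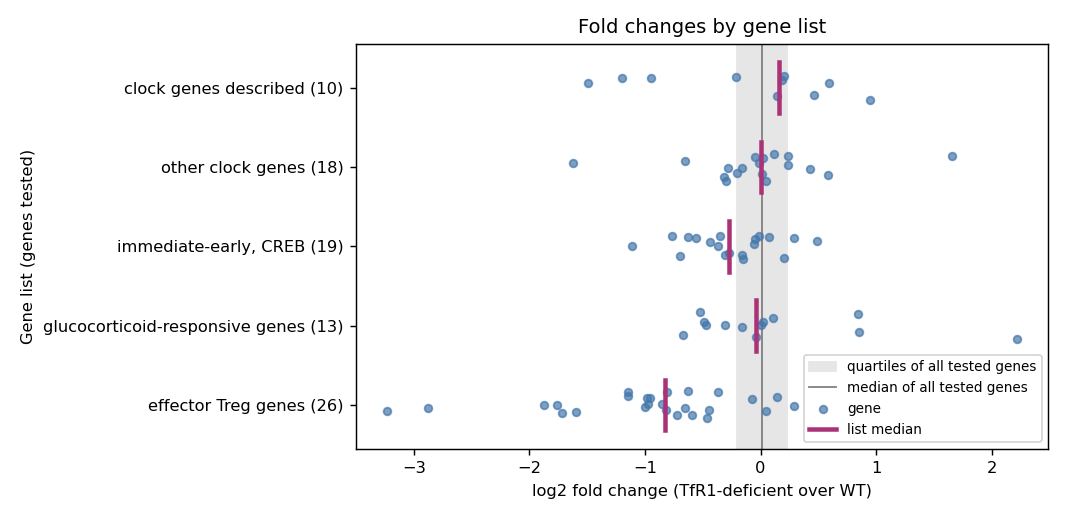
The edgeR log2 fold change, TfR1-deficient over WT, of each tested gene in 5 lists (points, spread vertically for visibility), with list medians (purple bars) and the median and quartiles of all tested genes (grey line and band). The medians of the 10 clock genes (0.16), the other clock genes (0.00) and the glucocorticoid-responsive genes (-0.04) lie inside the grey band, and those of the immediate-early and CREB-responsive genes (-0.27) and the effector Treg genes (-0.83) lie below it.

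The likeness of profiles was measured as the root mean square distance between genes in log2 CPM over the 4 libraries, each centred on its mean. The 5 genes nearest to *Bhlhe40* were 1700041G16Rik (0.106), *Hspa1b* (0.118), *Abcb1a* (0.138), *Myo3b* (0.150) and *Coro2b* (0.154). Of these, 1700041G16Rik, *Hspa1b* and *Coro2b* were scarce, at no more than 2.53, 1.97 and 4.12 CPM in any library. *Hspa1b* encodes an inducible heat shock protein and *Abcb1a* a multidrug efflux pump. The 5 nearest to *Per1* were *Trpm6* (0.065), *Pkd1l3* (0.077), *Sntb1* (0.085), *Il12rb1* (0.091) and *Il1rl1* (0.099), where *Il12rb1* encodes an interleukin-12 receptor chain and *Il1rl1* the interleukin-33 receptor. *Trpm6* and *Pkd1l3* were also scarce, at no more than 1.96 and 4.34 CPM in any library. With a prior count of 0.5 in place of 2 in log2 CPM, 2 of the 5 genes stayed nearest to *Bhlhe40* and 4 of the 5 to *Per1*. None of these 10 is a clock gene of the lists used. Only 10 members and 18 other clock genes were among the 12536 tested genes, so this absence is not read as a result. *Per1* ranked 81 of 12535 genes by nearness to *Bhlhe40* (0.338), and *Bhlhe40* ranked 356 by nearness to *Per1*. The 2 profiles differed in WT, where *Bhlhe40* was higher in WT 2 and *Per1* in WT 1. *Nr1d1* ranked 353 by nearness to *Per1* (0.338), while *Dbp* was near the far end for both *Per1* (rank 11546) and *Bhlhe40* (rank 11640). With only 4 libraries many genes share a profile, so these ranks describe these libraries.

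**Figure D4:**
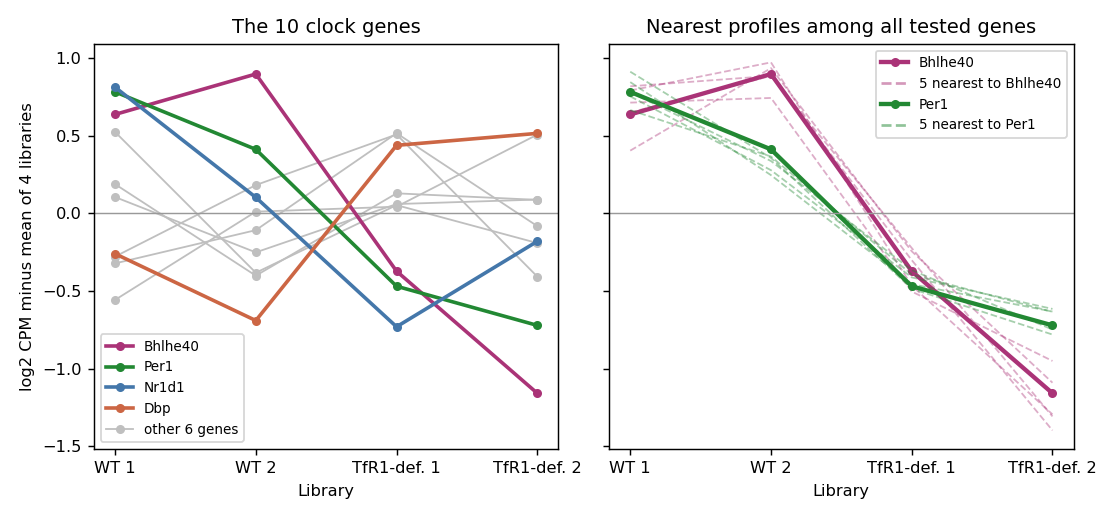
log2 CPM of each gene minus its mean over the 4 libraries, with libraries on the horizontal axis. On the left are the 10 clock genes, where *Bhlhe40*, *Per1* and *Nr1d1* lie below 0 and *Dbp* above 0 in both TfR1-deficient libraries, and on the right are *Bhlhe40* and *Per1* with the 5 genes nearest to each (dashed).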

How the data were processed

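Treg cells were sorted by the authors as CD4+ CD25+ YFP+ cells, and libraries were made with a low-input kit. The deposited values are raw read counts for each Ensembl gene and library, as whole numbers. The submitters' processing notes name Trim Galore 0.6.7, STAR 2.7.9a, featureCounts and mm10, whereas the methods name mm9, so coordinates printed here are those of RefSeq GRCm38.p6 and not of the counted features. Strand and annotation release were not given in the sources used here. Symbols were matched for 32799 of 47729 identifiers, *Ciart* and *Noct* through older symbols. Exon lengths came from GENCODE vM1.

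The 12536 genes passing filterByExpr were scaled by TMM and fitted in R 4.3.3 by the edgeR 4.0.16 quasi-likelihood method on genotype alone, with Benjamini-Hochberg adjustment over all genes, and log2 CPM used a prior count of 2. Each SE was taken as the log2 fold change over the root of edgeR's F. The fit was tested on simulated data. Named genes were the 10, called or extreme genes of each list, and the 5 nearest profiles. The members and lists were chosen with earlier results of these data known. Some genes that the rule names are not reported here. Alternatives were DESeq2 1.42.0, other scalings, filters and thresholds, a replicate block, and the omission of each library. Replicates differed beyond counting noise (chi-square per degree of freedom 29.3 in WT and 45.7 in TfR1-deficient), so none was merged. These values are 1 for each genotype and not for single genes. Whether this spread or depth limits precision was therefore not tested for each of the 10 genes. *Per3* and *Bhlhe41* had the fewest counts of the 10.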

Additional observations from a re-analysis of the deposited data

How the results depend on the processing

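*Bhlhe40*, *Per1*, *Nr1d1*, *Dbp*, *Per3* and *Cry1* kept their direction under every alternative run, and the other 4 of the 10 each changed sign when at least 1 library was left out. When each library was omitted, *Bhlhe40* ranged in log2 fold change from -1.90 to -1.15 and *Per1* from -1.38 to -0.99, the median of the other 8 members from 0.17 to 0.35, and that of the other clock genes from -0.07 to 0.12. Over the same omissions, which assume that a lone library varies like the other genotype, 131 (without WT 1) to 382 (without WT 2) genes were lower and 169 (without TfR1-deficient 2) to 353 (without TfR1-deficient 1) higher at the unadjusted threshold, with 1 to 3 other clock genes lower and 0 to 1 higher. Calls across all genes depended on the method. With no count filter, 167 genes were higher and 95 lower at the adjusted threshold, 650 were higher at the unadjusted threshold, and 1 other clock gene, *Arntl2*, was higher. DESeq2 called 6 higher and 33 lower after adjustment. *Arntl2* was also the 1 called higher with at least 10 counts in every library and with DESeq2. A minimum log2 change of 1 left 91 genes higher and 104 lower, with 1 other clock gene lower. A replicate block gave 70 higher and 141 lower at the unadjusted threshold, again with 1 other clock gene lower. Same-numbered libraries deviated in opposite directions (correlation -0.61), so they share only a number. The crossed pairing, chosen after seeing the data, gave 150 higher and 210 lower after adjustment and 596 and 519 before it. The cause of these shifts was not tested.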
